A study of Homo sapiens with 6 samples.

Results

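The miR-106b-25 cluster is a set of 3 microRNA hairpins, miR-106b, miR-93 and miR-25, which lie one after the other in an intron of MCM7. MCM7 encodes a subunit of the helicase that opens DNA at the start of replication. Both arms of each hairpin were taken by name from the deposited count table, which gave 6 of the 1000 mature miRNAs in it. The libraries came from HEK 293T cells, an immortalized human embryonic kidney line, and compared a strain without the terminal uridylyltransferases TUT4 (TENT3A) and TUT7 (TENT3B), called ΔTUT4/7, with wild type cells. There were 3 libraries of each strain, which the labels call biological replicates, and none was treated. The ΔTUT4/7 cells are 1 strain obtained from another laboratory, while the wild type cells came from a culture collection, so that other differences between the strains cannot be told apart from the deletion. Mature miRNA counts measure neither the messengers of TUT4 and TUT7 nor that of MCM7, and the identity of the line was not checked here.

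A miRNA hairpin is cut out of its primary transcript by Drosha and then opened by Dicer, which leaves a duplex of a 5p arm and a 3p arm. The arm that Argonaute keeps, the guide, finds its targets mainly through its seed, bases 2 to 8 counted from its 5′ end, and the other arm is largely degraded. The miR-106b-25 cluster is a paralog of the miR-17-92 cluster on chromosome 13 and of the miR-106a-363 cluster on the X chromosome. Its guides are known to restrain the cell cycle inhibitor CDKN1A and the pro-apoptotic protein BIM, and the cluster is amplified or overexpressed in several tumours.

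The mature sequences of the 6 arms are shown because 3 of them carry seeds that the paralog clusters share. They were taken from RefSeq on GRCh38.p14 and are written 5′ to 3′ with the seed in capitals. All lie on the minus strand of chromosome 7, and each has 1 locus.
hsa-miR-106b-5p (chr7:100094043-100094063): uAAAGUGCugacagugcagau
hsa-miR-106b-3p (chr7:100094002-100094023): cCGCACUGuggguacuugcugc
hsa-miR-93-5p (chr7:100093815-100093837): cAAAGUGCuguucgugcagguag
hsa-miR-93-3p (chr7:100093777-100093798): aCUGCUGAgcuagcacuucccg
hsa-miR-25-5p (chr7:100093610-100093630): aGGCGGAGacuugggcaauug
hsa-miR-25-3p (chr7:100093571-100093592): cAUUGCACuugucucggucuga

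miR-106b-5p and miR-93-5p had the same seed, AAAGUGC, although they differed at 4 of their first 18 bases. The seed of miR-25-3p was AUUGCAC. No other miRNA of the table with a matched sequence carried the seed of miR-106b-3p, miR-93-3p or miR-25-5p. The miRNAs of the table outside the cluster with a matched sequence and 1 of the 2 shared seeds are shown for comparison. They are called seed mates below and need not be all human miRNAs with these seeds. The seed mates of miR-106b-5p and miR-93-5p in the table all come from the paralog clusters. Of them, miR-17-5p and miR-20a-5p come from miR-17-92 and the others from miR-106a-363.
miR-17-5p: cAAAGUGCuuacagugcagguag
miR-20a-5p: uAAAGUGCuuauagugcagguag
miR-106a-5p: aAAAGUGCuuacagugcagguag
miR-20b-5p: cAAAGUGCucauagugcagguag
The seed mates of miR-25-3p come from the paralog clusters in the case of miR-92a-3p, which is encoded at 2 loci, and from single genes in the case of the others.
miR-92a-3p: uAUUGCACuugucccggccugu
miR-92b-3p: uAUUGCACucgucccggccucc
miR-32-5p: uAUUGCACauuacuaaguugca

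The reads had been trimmed to 18 bases, so only the first 18 bases could tell these miRNAs apart. None of the 6 arms shared its first 18 bases with another of the 897 miRNAs with a matched sequence. The distances below were taken over these miRNAs too. The closest relatives of miR-106b-5p, which were miR-17-5p, miR-20a-5p and miR-106a-5p, differed from it at 2 of the 18 bases. miR-93-5p differed from its closest relative, miR-20b-5p, at 3 bases, and miR-25-3p differed from miR-92a-3p at 3. The other arms differed from their nearest miRNAs at 5 or more. Between seed mates the distances were shorter, with 1 difference between miR-17-5p and miR-106a-5p and 1 between miR-92a-3p and miR-92b-3p. Counts of the rarer miRNA in these pairs could thus include reads of the commoner one. Since the mismatch settings are not given, the count of miR-106b-5p could likewise include reads of the commoner miR-17-5p and miR-20a-5p, at 2 differences. This was not tested.

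In GENCODE release 44 on hg38 the hairpins lay in intron 13 of the canonical MCM7 transcript, which has 15 exons on the minus strand of chromosome 7 between 100092233 and 100101940. The intron was 771 bases long, from 100093402 to 100094172. Counted in the direction of transcription from its 5′ end, the miR-106b hairpin began after 98 bases, the miR-93 hairpin after 325 and the miR-25 hairpin after 529. The gaps between neighbouring hairpins were 145 and 124 bases. The hairpins of miR-106b and miR-25 are printed with their mature arms in capitals to show which arm is which.
miR-106b hairpin (chr7:100093993-100094074): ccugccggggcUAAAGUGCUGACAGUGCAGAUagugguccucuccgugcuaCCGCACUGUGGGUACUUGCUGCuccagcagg
miR-25 hairpin (chr7:100093560-100093643): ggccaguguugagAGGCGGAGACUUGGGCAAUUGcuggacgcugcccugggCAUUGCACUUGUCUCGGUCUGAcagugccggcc

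**Figure D1:**
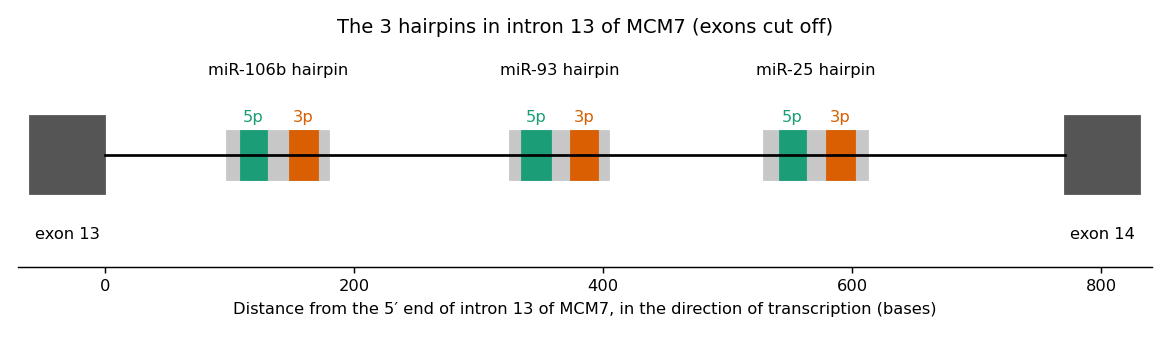
Map of intron 13 of MCM7 drawn to scale. The x axis is the distance in bases from the 5′ end of the intron in the direction of transcription, grey boxes are hairpins, coloured boxes are mature arms and dark boxes are parts of the flanking exons. The 3 hairpins follow one another within 515 bases of the 771-base intron.

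Levels are given as CPM, the count of a miRNA after all miRNA counts of its library are scaled to a total of 1000000. Because all reads had the same trimmed length, CPM values of different miRNAs are on one scale, apart from the efficiency with which each sequence is cloned and amplified. The libraries held between 4338558 and 7967606 counts. Replicates differed by more than counting error in both strains. Wild type replicate 3 stood apart from its group most, with 85 of 391 miRNAs above 10 CPM (21.7%) more than 1.5-fold from the mean of the other 2 wild type libraries, against 8.95% to 12.8% for the other wild type libraries and 0.767% to 7.93% for the ΔTUT4/7 libraries. Results that rest on it are given below with and without it.

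The cluster was abundant in these cells, in which fewer cells with a miRNA and less of it per cell cannot be told apart. Its 6 arms together took 6.63%, 6.73% and 7.02% of the counts in ΔTUT4/7 replicates 1 to 3 (6.79% ± 0.204, SD, n = 3) and 7.84%, 8.13% and 6.58% in the wild type libraries (7.51% ± 0.823, n = 3). The ranges overlapped through wild type replicate 3. Nearly all of it came from 2 arms, miR-93-5p and miR-25-3p, which made up 95.9% of the cluster's counts in ΔTUT4/7 and 96.1% in wild type cells. miR-93-5p ranked 2 to 7 among the 1000 miRNAs of a library and miR-25-3p 4 to 10.

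Between the strains the large arms differed little and the small ones went different ways. Of the 6 arms, 1 was higher in ΔTUT4/7 (miR-25-5p) and 1 was lower (miR-106b-5p) at an adjusted p under 0.05 (edgeR quasi-likelihood test, adjusted over the 826 tested miRNAs), and 4 were not called. Over all tested miRNAs 45.2% were called, 23.2% higher and 21.9% lower, so 2 of 6 was no more than the background. No arm passed the 2-fold limit as well, which 30.0% of all tested miRNAs did. The median log2 fold change of the 6 arms was -0.093, beside 0.013 over all tested miRNAs.

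**Figure D2:**
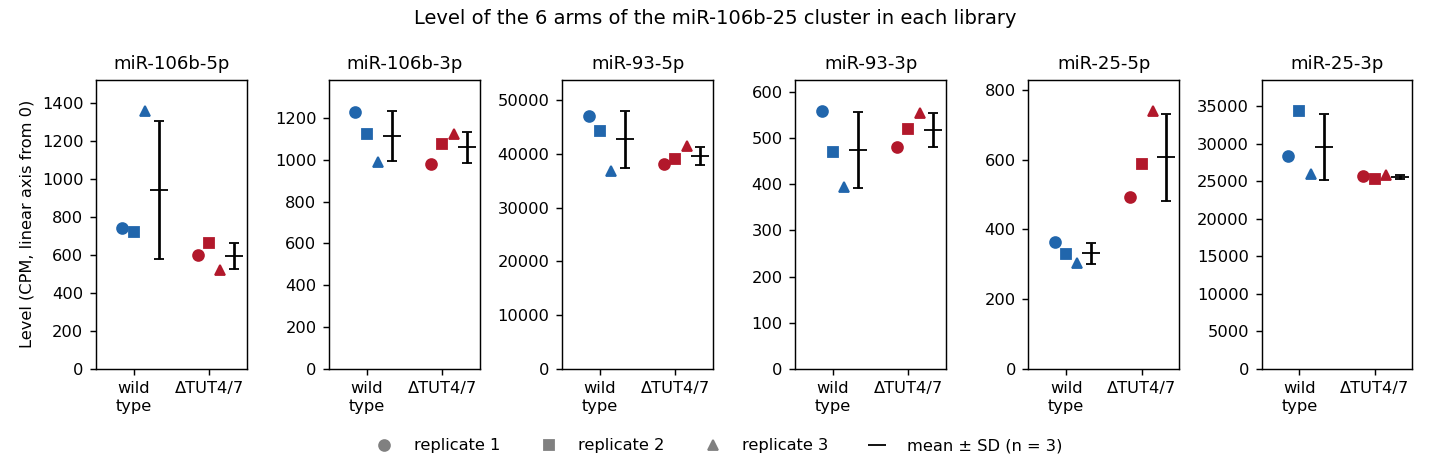
Level of each arm in CPM (y axis, linear, from 0, with its own scale in each panel) in the 3 wild type libraries (blue) and the 3 ΔTUT4/7 libraries (red). Symbols mark replicate numbers and bars the mean ± SD. miR-25-5p lay above the wild type range in all ΔTUT4/7 libraries, and the wild type mean of miR-106b-5p was raised by replicate 3 at 1362 CPM.

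hsa-miR-93-5p, the guide of its hairpin and the most abundant arm, had 38093, 39113 and 41402 CPM in the ΔTUT4/7 libraries. In wild type cells it had 47139, 44208 and 36777 CPM. The ranges overlapped, with wild type replicate 3 the lowest of all 6 libraries. The means were 39536 ± 1695 and 42708 ± 5342 CPM, and the log2 fold change, ΔTUT4/7 over wild type, was -0.11 (SE 0.11, 95% interval -0.36 to 0.13, edgeR adjusted p = 0.436). A change of 2-fold in either direction lay outside that interval. Counting error was small at this depth, with a coefficient of variation of 0.228% expected from counting against 4.29% observed in ΔTUT4/7 and 0.204% against 12.5% in wild type.

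hsa-miR-25-3p, the guide of the miR-25 hairpin, had 25637, 25308 and 25864 CPM in the ΔTUT4/7 libraries. The wild type libraries held 28332, 34411 and 25949 CPM. Each ΔTUT4/7 value was below each wild type value, but the highest ΔTUT4/7 library and the lowest wild type library, replicate 3, nearly met. Of all tested miRNAs, 58.4% had strains that did not overlap. Its log2 fold change was -0.21 (SE 0.12, 95% interval -0.46 to 0.05, edgeR adjusted p = 0.164). The 3 ΔTUT4/7 libraries were close to each other, at 25603 ± 280 CPM, while the wild type libraries spread more, at 29564 ± 4363 CPM.

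hsa-miR-106b-5p carries the same seed as miR-93-5p but was far less abundant. The ΔTUT4/7 libraries had 601, 662 and 521 CPM, and the wild type libraries had 743, 719 and 1362 CPM. All ΔTUT4/7 libraries were below all wild type libraries, and wild type replicate 3 was 1.86 times the mean of the other wild type libraries. The log2 fold change was -0.66 (SE 0.23, 95% interval -1.16 to -0.16, edgeR adjusted p = 0.0336), which is a mean of 595 ± 70.4 CPM in ΔTUT4/7 against 941 ± 364 CPM in the wild type libraries. Without wild type replicate 3 the wild type mean was 731 CPM and the log2 fold change -0.30 (edgeR adjusted p = 0.0764). The call was also lost without ΔTUT4/7 replicate 1 (-0.67, adjusted p = 0.0792) or replicate 3 (-0.58, adjusted p = 0.107), with library totals counted without let-7 and miR-98 (-0.44, adjusted p = 0.130) and after removal of the trend with GC content (-0.48, adjusted p = 0.0553).

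When wild type replicate 3 was left out, the guides of the 3 hairpins had log2 fold changes close to each other. miR-106b-5p was at -0.30, miR-25-3p at -0.29 (edgeR adjusted p = 0.0260) and miR-93-5p at -0.21 (edgeR adjusted p = 0.0420), the latter 2 then being called lower. The differences between them under this choice were not tested. With library totals counted without let-7 and miR-98, which moved the median of all tested miRNAs from 0.013 to 0.23, miR-93-5p stood at 0.11 and miR-25-3p at 0.016, below that median by 0.12 and 0.22.

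The ratios between guides of one library do not depend on the scaling and show how the hairpins of the intron stood to each other. miR-93-5p outnumbered miR-106b-5p by 63.4, 59.1 and 79.4 times in ΔTUT4/7 and by 63.4, 61.5 and 27.0 times in wild type cells. Wild type replicate 3 had the lowest ratio, and the other 5 libraries lay between 59.1 and 79.4. The ratio of miR-93-5p to miR-25-3p was 1.49, 1.55 and 1.60 in ΔTUT4/7 and 1.66, 1.28 and 1.42 in wild type cells, and that of miR-25-3p to miR-106b-5p ran from 38.2 to 49.6 and from 19.1 to 47.8. Ranges overlapped for all 3 pairs (exact two-sided permutation test, p = 0.5, 0.5 and 0.4, each 0.5 after adjustment over the 3 pairs), where the smallest p that 3 against 3 libraries allow is 0.1.

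hsa-miR-25-5p, the less abundant arm of the miR-25 hairpin, was the arm that rose. It had 494, 587 and 740.3 CPM in the ΔTUT4/7 libraries. The wild type libraries had 362, 329.6 and 302 CPM. The strains did not overlap, and the means of 607 ± 125 and 331 ± 30.2 CPM differed 1.83-fold. The log2 fold change was 0.87 (SE 0.17, 95% interval 0.49 to 1.25, edgeR adjusted p = 0.00174), and it stayed called under each alternative tried, between 0.67 and 1.10, and without each library in turn, between 0.70 and 1.00. The ΔTUT4/7 libraries varied among themselves by a coefficient of variation of 20.5%, against 1.85% expected from counting.

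The other less abundant arms did not pass the test. hsa-miR-106b-3p had 979.5, 1074 and 1123 CPM in ΔTUT4/7 and 1229.8, 1125 and 991 CPM in wild type cells, with overlapping ranges and a log2 fold change of -0.075 (SE 0.14, 95% interval -0.38 to 0.23, edgeR adjusted p = 0.692). It exceeded its partner miR-106b-5p in every library but wild type replicate 3, so the name of the hairpin's guide rests on background knowledge and not on its level here. hsa-miR-93-3p had 481, 519.6 and 554 CPM in ΔTUT4/7 and 560.1, 470.2 and 393 CPM in wild type cells, again overlapping, with a log2 fold change of 0.13 (SE 0.16, 95% interval -0.23 to 0.48, edgeR adjusted p = 0.548). The sign of the first was positive (0.15) with totals counted without let-7 and miR-98, and that of the second was negative (-0.086) after removal of the GC trend.

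**Figure D3:**
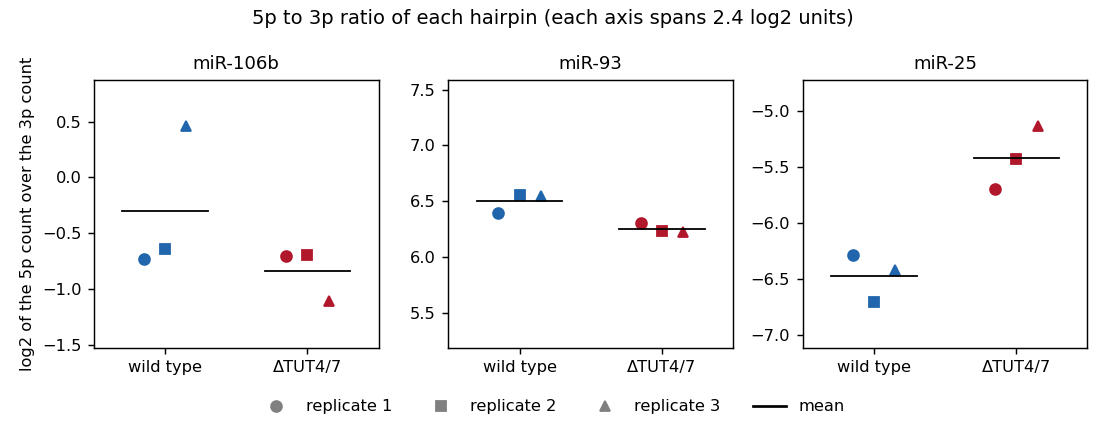
Ratio of the 5p count to the 3p count of each hairpin in each library, on a log2 axis of the same span in each panel. Points are libraries, with replicate numbers by symbol, and lines are means of 3. The miR-25 ratio was higher in all ΔTUT4/7 libraries, and for miR-106b wild type replicate 3 lay apart.

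Because the arms of a hairpin come from one precursor, their ratio was compared in each library across 200 hairpins with both arms tested. For the miR-25 hairpin, miR-25-3p outnumbered miR-25-5p by 51.9, 43.1 and 34.9 times in ΔTUT4/7 and by 78.2, 104.4 and 85.9 times in wild type cells. The strains did not overlap, but how many of the 200 hairpins shared this trait was not counted. The log2 ratio of 5p to 3p differed by 1.05 (SE 0.22, 95% interval 0.58 to 1.53, limma adjusted p = 0.0107 over the 200 hairpins), and 15.5% of the hairpins were called. Of the 200 hairpins, 169 had a smaller difference in size. The call was lost without ΔTUT4/7 replicate 2 (adjusted p = 0.0578), ΔTUT4/7 replicate 3 (0.0645) or wild type replicate 2 (0.0562), with differences of 1.06, 0.91 and 0.94 in the same direction.

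The other hairpins were not called. For miR-93 the 5p arm exceeded the 3p arm by 79.2, 75.3 and 74.7 times in ΔTUT4/7 and by 84.2, 94.0 and 93.5 times in wild type cells. These values did not overlap either, again without a count over all hairpins. The difference in the log2 ratio was small, at -0.24 (SE 0.18, 95% interval -0.64 to 0.16, limma adjusted p = 0.383). For miR-106b the ratio of 5p to 3p was 0.614, 0.616 and 0.464 in ΔTUT4/7 and 0.604, 0.640 and 1.37 in wild type cells, with a difference of -0.53 (SE 0.31, 95% interval -1.21 to 0.14, limma adjusted p = 0.265) that came to -0.15 without wild type replicate 3. That library was high in miR-106b-5p alone among the 6 arms, the other arms being 0.76 to 0.87 times the mean of the other wild type libraries. Among the seed mates and paralog arms with a mean above 10 CPM, those more than 1.5-fold from that mean were, on the high side, miR-17-5p (3.10 times), miR-18b-5p (2.51), miR-32-5p (2.02), miR-18a-5p (1.93), miR-106a-5p (1.60) and miR-92a-1-5p (1.52), and, on the low side, miR-18a-3p (0.51), miR-92b-3p (0.56) and miR-92a-3p (0.58). Whether a shared feature of that library lies behind these values was not tested.

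Of the paralog clusters, miR-17-92 moved differently from the cluster in MCM7, while miR-106a-363 had too few measured arms to tell. The miR-17-92 cluster, whose guides include the seed mates miR-17-5p, miR-20a-5p and miR-92a-3p, had 10 of its 12 arms called higher in ΔTUT4/7 and none lower, against a background of 23.2% higher and 21.9% lower. The median log2 fold change of the 12 was 1.03. The exceptions were miR-17-5p at -0.028 (edgeR adjusted p = 0.957) and miR-18a-5p at 0.49 (edgeR adjusted p = 0.0866), both of which were high in wild type replicate 3. Of 10 arms listed for the miR-106a-363 cluster apart from those it shares with miR-17-92, 4 were in the table and 3 were tested, of which 1 was called higher, miR-19b-2-5p, with 5, 7 and 9 counts in ΔTUT4/7 and 1, 1 and 0 in wild type cells. The other 2, miR-106a-5p and miR-18b-5p, were at 0.42 and 0.71 and were not called. Without wild type replicate 3, all 15 tested arms of both paralog clusters were called higher, in place of 11.

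**Figure D4:**
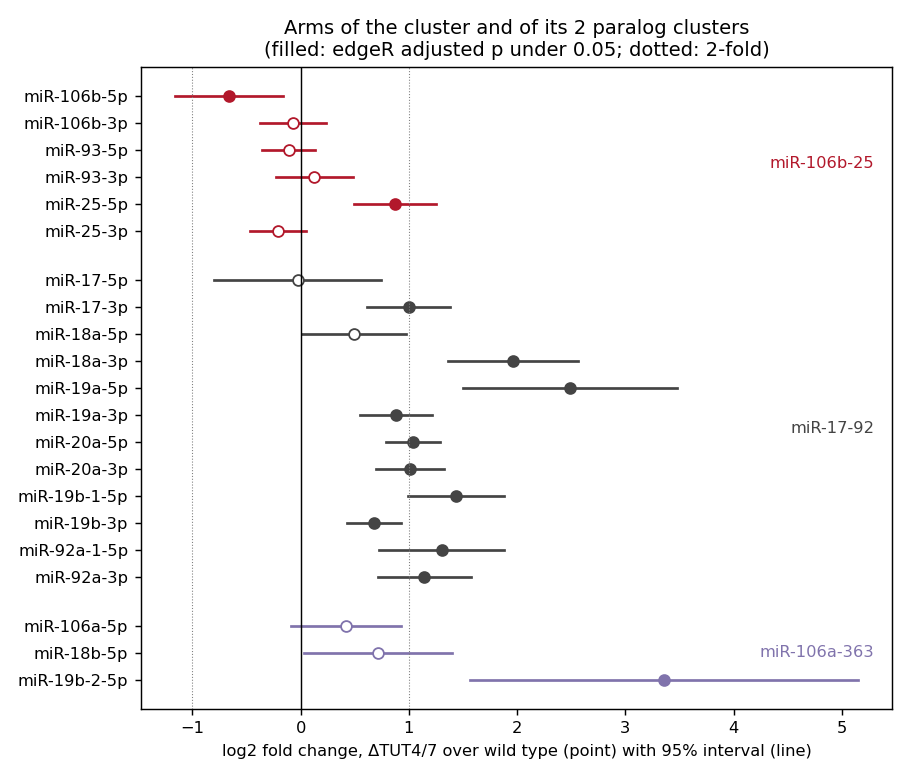
Log2 fold change, ΔTUT4/7 over wild type (x axis), of each tested arm of the miR-106b-25 cluster (red), the miR-17-92 cluster (grey) and the miR-106a-363 cluster (purple), with 95% intervals. Filled points passed an adjusted p under 0.05 and dotted lines mark 2-fold. The median was -0.093 for the 6 red points and 1.03 for the 12 grey ones.

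The difference between the clusters was tested arm by arm, with the count of an arm of the MCM7 cluster in place of the library total. Relative to miR-25-3p, 11 of the 15 tested paralog arms were higher in ΔTUT4/7 and none lower, where 25.9% of all other tested miRNAs were higher and 14.1% lower. Relative to miR-93-5p, a reference chosen after the data were seen, it was also 11 of 15 and none lower, against 25.1% and 17.1%. Relative to miR-106b-5p, whose own level rested on wild type replicate 3, it was 14 of 15 and none lower, against 33.6% and 6.30%. Of the 15 paralog arms, 12 belong to miR-17-92, so these counts say little about miR-106a-363. The arms of one cluster come from one transcript and are not independent of each other.

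The clearest contrast within a seed was that of miR-93-5p with miR-20a-5p, the most abundant member of miR-17-92 with this seed. miR-20a-5p had 66862, 66731 and 62975 CPM in ΔTUT4/7 and 36850.1, 28543 and 30192 CPM in wild type cells, with a fold change of 1.04 on the log2 scale (SE 0.11, edgeR adjusted p = 1.7e-05). The ratio of miR-20a-5p to miR-93-5p was 1.76, 1.71 and 1.52 in ΔTUT4/7 and 0.782, 0.646 and 0.821 in wild type cells, so the order of the pair was reversed between the strains in all libraries. The log2 difference of this ratio was 1.15 (SE 0.15, 95% interval 0.82 to 1.48, edgeR adjusted p = 1.52e-04). Against miR-106b-5p, miR-20a-5p was higher by 1.58 (SE 0.32, 95% interval 0.92 to 2.23, edgeR adjusted p = 2.18e-04). Without wild type replicate 3 this value was 1.31 (edgeR adjusted p = 2.50e-09).

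The rarer mates gave less clear contrasts. miR-17-5p had 4688, 4529.8 and 3652 CPM in ΔTUT4/7 and 2402, 2743 and 7975 CPM in wild type cells, where replicate 3 alone exceeded the ΔTUT4/7 range. Relative to miR-93-5p its log2 difference was -0.012 (95% interval -0.98 to 0.95, edgeR adjusted p = 0.985), and 0.95 without wild type replicate 3 (adjusted p = 9.94e-06). Relative to miR-106b-5p it was 0.75 (95% interval 0.09 to 1.40, edgeR adjusted p = 0.0619), and 1.03 without that library (adjusted p = 4.12e-06). miR-106a-5p, with means of 50.7 and 38.2 CPM in ΔTUT4/7 and wild type libraries, differed by 1.04 relative to miR-106b-5p (edgeR adjusted p = 0.0137), a call that was lost without ΔTUT4/7 replicate 1 (0.98, adjusted p = 0.0749), ΔTUT4/7 replicate 2 (1.04, 0.0539) or wild type replicate 2 (1.03, 0.0528), and by 0.49 relative to miR-93-5p (edgeR adjusted p = 0.198), which came to 0.89 without wild type replicate 3 (adjusted p = 7.44e-04). miR-20b-5p had at most 4 counts in a library and was not tested.

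The seed mates of miR-25-3p went both ways. miR-92a-3p had 48594, 54209.6 and 62223 CPM in ΔTUT4/7 and 32550.5, 25426 and 16737 CPM in wild type cells, without overlap (log2 fold change 1.14, SE 0.20, edgeR adjusted p = 6.48e-04). miR-32-5p had 580.2, 696 and 732 CPM in ΔTUT4/7 and 1164, 826 and 2006 CPM in wild type cells, also without overlap (-0.99, SE 0.26, edgeR adjusted p = 0.00857). Its wild type mean was 1332 CPM, and 995 CPM without replicate 3, which was 2.02 times the mean of the other wild type libraries. With that library left out, 1 seed mate was still called lower. miR-92b-3p was at 789 ± 146 and 537 ± 185 CPM and was not called (0.56, edgeR adjusted p = 0.0705). The 2 called mates thus lay on opposite sides of miR-25-3p.

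Measured against miR-25-3p itself, miR-92a-3p was higher in ΔTUT4/7 by 1.35 on the log2 scale (SE 0.22, 95% interval 0.89 to 1.81, edgeR adjusted p = 2.24e-04), with ratios of 1.90, 2.14 and 2.41 against 1.15, 0.739 and 0.645. Without wild type replicate 3 the log2 difference was 1.19 (edgeR adjusted p = 9.16e-06). miR-92b-3p was higher by 0.76 (95% interval 0.22 to 1.30, edgeR adjusted p = 0.0274), and the call was lost without ΔTUT4/7 replicate 2 (0.78, adjusted p = 0.0657), ΔTUT4/7 replicate 3 (0.61, 0.121) or wild type replicate 2 (0.66, 0.0741). miR-32-5p was lower, at -0.86 (95% interval -1.55 to -0.17, edgeR adjusted p = 0.0448). Its call was lost without any 1 library other than wild type replicate 2, with the value running from -1.18 to -0.31 and standing at -0.31 without wild type replicate 3.

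miRNAs with one seed can bind the same sites, so their levels were also summed. This pool is a description of the counts, with no test. The pool with the seed of miR-106b-5p and miR-93-5p summed to 109995 ± 1277 CPM in the ΔTUT4/7 libraries and 79923 ± 6276 CPM in the wild type ones. The 2 arms from MCM7 supplied 35.1%, 35.8% and 38.6% of it in the ΔTUT4/7 libraries and 54.9%, 58.9% and 49.9% in the wild type libraries. Most of the rest was miR-20a-5p, with 58.0% to 60.6% of the pool in ΔTUT4/7 and 37.4% to 42.3% in wild type cells. miR-17-5p supplied 10.4% in wild type replicate 3 and 2.76% to 4.25% in the other 5 libraries. Thus the MCM7 cluster held the larger part of this pool in 2 of 3 wild type libraries and in none of the ΔTUT4/7 libraries.

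The pool with the seed of miR-25-3p summed to 82071 ± 7210 CPM in the ΔTUT4/7 libraries and 56338 ± 9812 CPM in the wild type ones. miR-25-3p supplied 34.0%, 31.3% and 28.8% of it in the ΔTUT4/7 libraries and 45.1%, 56.2% and 57.6% in the wild type libraries. miR-92a-3p supplied 64.4% to 69.3% in ΔTUT4/7 and 37.2% to 51.9% in wild type cells. In both pools the ranges of the cluster's share did not overlap between the strains. The CPM of 58.4% of all tested miRNAs did not overlap either, and shares were not computed for other seeds. The cluster's own contribution in CPM changed less than that of its largest mate, miR-20a-5p or miR-92a-3p. A share falls when a mate rises, so it is no result separate from the levels of these mates.

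**Figure D5:**
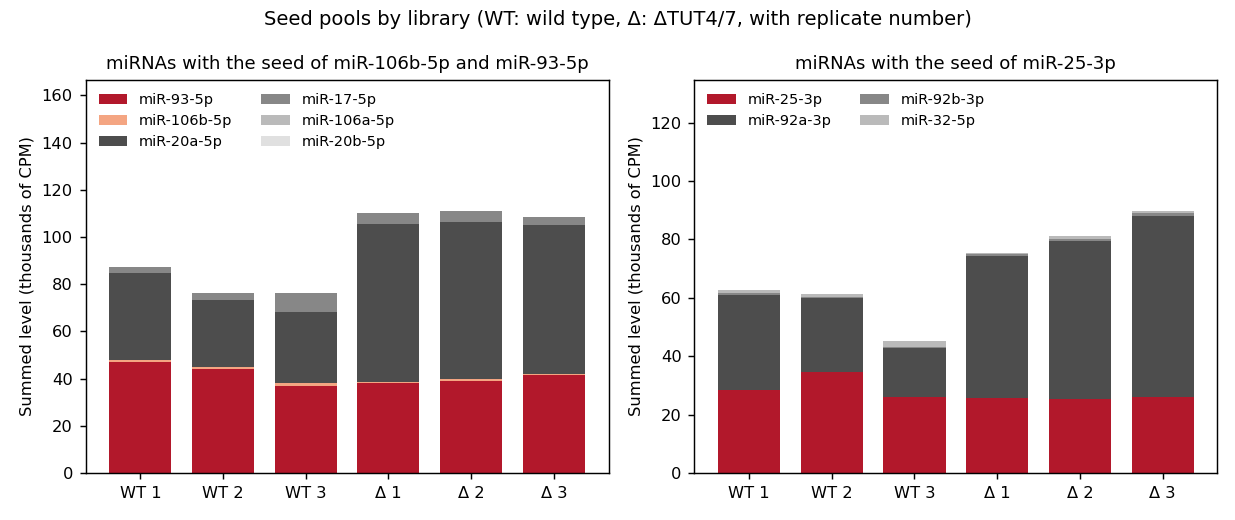
Stacked bars of the summed level in units of 1000 CPM (y axis, from 0) of the miRNAs that share the seed of miR-106b-5p and miR-93-5p (left) or of miR-25-3p (right), 1 bar per library, with WT for wild type and Δ for ΔTUT4/7. The dark parts, miR-20a-5p and miR-92a-3p, are taller in each ΔTUT4/7 library than in any wild type library, while miR-93-5p (left, red) overlaps between the strains and miR-25-3p (right, red) lies between 25308 and 34411 CPM.

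The miRNAs whose levels followed the summed CPM of the 6 arms most closely over the 6 libraries were taken from 370 others above 10 CPM, by the root mean square difference of log2 CPM after centring each on its mean. They were miR-1287-5p (0.064), miR-502-3p (0.078), miR-342-3p (0.081), miR-425-3p (0.087) and miR-629-5p (0.089), where the median of the 370 was 0.404. Their log2 fold changes between the strains ran from -0.19 for miR-629-5p to -0.0033 for miR-342-3p, and none was called. Because the list was picked over the same 6 libraries, fold changes near that of the cluster's sum followed from the choice and are no separate result. No paralog arm was eligible for this list.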

How the data were processed

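Small RNA from 6 libraries (QIAseq miRNA Library Kit) was processed by the authors, who cut reads to 18 nt, mapped these on hg38 using Bowtie 1.0.0 and quantified mature miRNAs in Partek 10.0.22 (versions from the submitters' processing notes). The deposited values are estimated counts per mature miRNA, all whole numbers, of which ambiguous reads were divided among miRNAs by the authors. Mismatch settings and the use of molecular identifiers are not given in the sources used here. A second deposited file, with the authors' p-values, FDR, ratios, fold changes and strain means, was not used.

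Strains were assigned from the labels. CPM was computed on library totals (4338558 to 7967606), and miRNAs with a highest count above 7 (826 of 1000) were tested with edgeR 4.0.16 in R 4.3.3 by the quasi-likelihood test, with normalization factors of 1 and Benjamini-Hochberg adjustment, as a substitute for the authors' test. Ratios of arms, log2 of counts plus 0.5, were tested with limma 3.58.1 over 200 hairpins. Relative differences used the count of a reference arm as library size in edgeR, and with limma as an alternative. Ratios of guides were compared by exact permutation in scipy 1.17.1. Scripts were tested on simulated data. Sequences of 897 of the 1000 miRNAs were matched in RefSeq (GRCh38.p14).

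Replicates differed beyond counting error (chi-square per degree of freedom 13.6 to 56.3 in ΔTUT4/7 and 101.0 to 301.2 in wild type). P-values of the fits set the difference between the strains against the spread between these libraries. They do not cover variation between independent knockout strains. The named miRNAs are the 6 arms, all miRNAs with a matched sequence and the seed of miR-106b-5p or miR-25-3p, and the arms of the 2 paralog clusters. The 5 miRNAs nearest to the cluster's summed level are named too. The members and lists were chosen with earlier results of these data known. The alternatives were TMM and RLE factors, DESeq2 1.42.0, totals from which let-7 and miR-98 were dropped, limma-trend, no filter, filterByExpr, summing miRNAs that share 18 nt, removal of a GC trend, a pseudocount of 1, hairpins above 10 CPM only, a replicate block and leaving out each library. Using miR-93-5p as a reference was added after the data were seen.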

Additional observations from a re-analysis of the deposited data

How the results depend on the processing

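With totals counted without let-7 and miR-98, the log2 fold changes were -0.44 for miR-106b-5p, 0.15 for miR-106b-3p, 0.11 for miR-93-5p and 0.016 for miR-25-3p, 0 of the 6 arms were called lower, 1 passed 2-fold (miR-25-5p, 1.10) and 4 seed mates were called higher in place of 2. With the GC trend removed, miR-106b-5p was at -0.48 and miR-93-3p at -0.086, and 0 arms were called lower. Leaving out 1 library at a time gave -0.82 to -0.30 for miR-106b-5p, -0.15 to 0.00094 for miR-106b-3p (0.00094 without wild type replicate 1), -0.21 to -0.034 for miR-93-5p, -0.29 to -0.084 for miR-25-3p, 0 to 2 arms called lower, 0 to 1 past 2-fold, 10 to 15 paralog arms and 2 to 4 seed mates called higher, and 0.91 to 1.19 for the miR-25 arm ratio. The ranges relative to miR-106b-5p were 0.97 to 1.11 for miR-106a-5p and 0.58 to 1.03 for miR-17-5p. Those relative to miR-93-5p were 0.30 to 0.89 for miR-106a-5p and -0.35 to 0.95 for miR-17-5p (0.12 without ΔTUT4/7 replicate 3), and those relative to miR-25-3p were -1.18 to -0.31 for miR-32-5p and 0.59 to 1.08 for miR-92b-3p. With limma in place of edgeR, miR-32-5p relative to miR-25-3p was at -0.70 (adjusted p = 0.116) and miR-17-5p relative to miR-93-5p at 0.29. The deviations of same-numbered libraries correlated at -0.17, -0.16 and -0.25 over 391 miRNAs. This gave no sign that replicate numbers pair the libraries, although so few values cannot exclude a pairing. With the replicate number as a block, all calls of the 6 arms were kept (miR-106b-5p -0.60, adjusted p = 0.0329), 349 of 826 miRNAs were called in place of 373, and the miR-25 arm ratio (1.05, adjusted p = 0.0621), miR-106a-5p relative to miR-106b-5p (1.04, 0.0923) and miR-32-5p relative to miR-25-3p (-0.71, 0.0541) were no longer called, with miR-17-5p relative to miR-93-5p at 0.33. The causes were not tested. Of 315 values under alternatives, 270 kept their direction and their side of the limit or, where they were counts of calls, stayed within 1.5 times the count given in the report. Counting error was below the spread between libraries for all 6 arms.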
